A study of Rattus norvegicus with 2 samples.

Results

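Among 90174 regions of H3K27me3 enrichment in rat sciatic nerve, 5160 (5.72%) were narrow regions lying beside wide ones. A member spans at most 500 bp, lies on chromosomes 1 to 20, and has its midpoint within 50 kb of the nearest edge of a region of 5 kb or wider. It also lies outside every merged domain of 20 kb or more, where a merged domain joins regions 3 kb or less apart. Of 77007 narrow regions on the autosomes, 6.70% met the rule. Another 3267 lay as close to a wide region but inside such a domain, and 65290 lay outside domains and farther away. The 693 wide regions of the autosomes are the reference points for all distances below. The members were thus chosen by their width and position, and both come from the same ChIP against input comparison as the tags, so numbers, tag densities and ratios by distance are descriptions with no test. The side of the wide region was not used by the rule, and differences between sides were tested.

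H3K27me3, trimethylation of lysine 27 on histone H3, is placed by Polycomb repressive complexes and marks silenced genes. The writer complex can bind the mark it makes through its subunit EED and methylate neighbouring nucleosomes, so the mark often forms broad domains around sites where the complex is recruited. In Schwann cells, the myelinating glia of peripheral nerve, the mark is known for holding genes of the injury response silent.

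Nerves came from male Sprague Dawley rats, and 2 ChIP libraries form the only group. Age has no label of its own, and an entry of P28, filed as a passage, is not explained for a tissue. The labels give no genotype change or treatment and do not say whether animals were pooled, while the directory names in the list's header carry the word Sham. The nerve holds Schwann cells, fibroblasts, perineurial, endothelial and immune cells, and this make-up could not be checked against marker genes, because positions were not tied to genes. Calling used a single combined set of 46.8 M ChIP tags against 41.2 M input tags, so no value exists per library. Errors are 95% exact counting intervals or SDs over 20 autosomes, and neither is a spread between animals. No source used here gives the genome build. Positions are printed as deposited, and the sequences under them were not analysed here.

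Pooled over all wide regions, narrow regions were densest right beside the wide region and thinned out with distance on both sides. All 441 members within 3 kb lay beside the 225 wide regions outside merged domains of 20 kb or more. Beside the 468 wide regions inside such domains the number was highest at 20 to 30 kb, as given below. To allow for sequence that a member cannot occupy, numbers are given per Mb of open flank, which leaves out wider regions and merged domains of 20 kb or more. The allowance is not complete. Open flank starts at the edge, while no member's midpoint came closer than 299 bp. It also counts the 3 kb beyond the edge of each such domain, which the rule keeps empty. Within 3 kb of wide regions inside such domains this was 0.216 Mb. Within 3 kb of the edges of the 301 such domains that hold a wide region it was 1.79 Mb, much of it in farther bins. Values within 3 kb and farther out are thus lower than they would be without this sequence. In the first kb from the edge 199 members lay in 0.417 Mb of open flank, or 477 per Mb (95% counting interval 413 to 548). The number was 320 per Mb (268 to 380) from 1 to 2 kb and 224 per Mb (184 to 270) from 2 to 3 kb. Chromatin was sheared to an average of 0.5 to 2 kb, so steps of 1 kb are close to the limit of resolution. At this resolution the steepest part of the decline lay within 3 kb.

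Beyond this the decline was slower and had no break at the 50 kb limit of the rule. From 3 to 5 kb there were 202 members per Mb, and from 5 to 10 kb 149 per Mb. The 10 kb steps that followed held 133, 123, 111 and 94.5 per Mb, the last with an interval of 88.2 to 101. Narrow regions outside domains went on falling beyond the members' limit, to 76.6 per Mb at 50 to 75 kb, 65.5 at 75 to 100 kb and 42.6 at 200 to 500 kb. The share of open flank that narrow regions covered fell from 11.4% in the first kb to 1.81% at 40 to 50 kb and 0.807% at 200 to 500 kb.

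**Figure D1:**
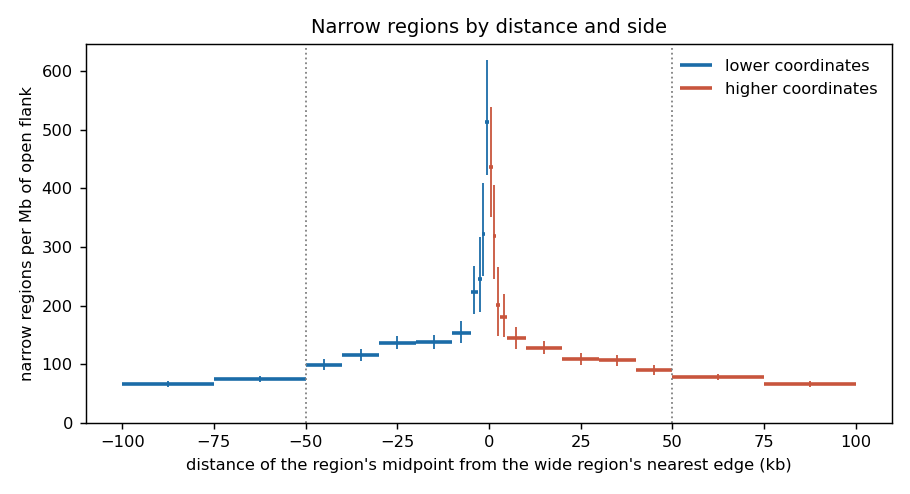
Narrow regions per Mb of open flank (vertical axis) by signed distance in kb from the nearest edge of a wide region. Horizontal lines span each distance bin, vertical lines are 95% exact Poisson intervals, and dotted lines mark the 50 kb limit of the rule; both sides peak in the first kb, at 514 and 437 per Mb.

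The same decline was present on every autosome. Within 10 kb the autosomes held 202 ± 28.8 members per Mb, and at 40 to 50 kb 97.8 ± 31.1 (SD, n = 20 autosomes). The first value exceeded the second on 20 of 20 autosomes. Pooled over autosomes, the near flank held 2.13 times as many members per Mb as the far flank (95% counting interval 1.95 to 2.33). This ratio was 1.28 when only regions of 10 kb or more counted as wide, and 3.38 when narrow regions inside long domains were kept. The autosomal ratio had a median of 1.98, from 1.36 on chromosome 19 to 9.95 on chromosome 20. The chromosome 20 value rests on only 6 members at 40 to 50 kb. Its removal moved the mean from 2.56 ± 1.98 to 2.18 ± 0.97.

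Whether the number fell steadily with distance depended on whether the wide region stood by itself or inside a merged domain of 20 kb or more. Of the 693 wide regions, 225 lay outside such domains and carried 2409 members, and 468 lay inside and carried 2751. Beside the first kind, the number fell from 400 per Mb (364 to 439) within 3 kb to 193 at 3 to 10 kb and 69.0 (61.0 to 77.8) at 40 to 50 kb. Beside the second kind no member can lie within 3 kb, because it would be merged into the domain. There the number was 108 per Mb (93.1 to 126) at 3 to 10 kb, rose to 150 (139 to 161) at 20 to 30 kb and was 115 (105 to 125) at 40 to 50 kb. The ratio of the flank within 10 kb to that at 40 to 50 kb was 3.64 (3.17 to 4.18) outside domains. Inside it was 0.835 (0.702 to 0.991), but this counts open flank within 3 kb that the rule keeps empty. From 3 to 10 kb against 40 to 50 kb, the ratios were 2.80 (2.42 to 3.26) outside and 0.945 (0.794 to 1.12) inside. Beyond 3 kb from the wide region, the inside values still count the 3 kb next to the domain's edge, which the rule keeps empty. The low number at 3 to 10 kb, the rise after it and the inside ratios are thus in part set by the rule.

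Measured from the edge of the merged domain that holds the wide region, the decline was of like size in both kinds. This measure was added after the data had been seen. Narrow regions at 3 to 10 kb from the edge numbered 139 per Mb beside domains under 20 kb and 198 per Mb beside longer ones. At 40 to 50 kb the numbers were 65.5 and 94.4 per Mb. The ratios were 2.12 (1.804 to 2.494) and 2.09 (1.86 to 2.35). Flanks of the longer domains held more narrow regions in each of the 5 distance bins from 3 to 50 kb, with counting intervals that did not overlap. These intervals take regions as independent, which neighbours are not. Domain length is itself made from neighbouring regions, so the 2 measures are not independent.

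**Figure D2:**
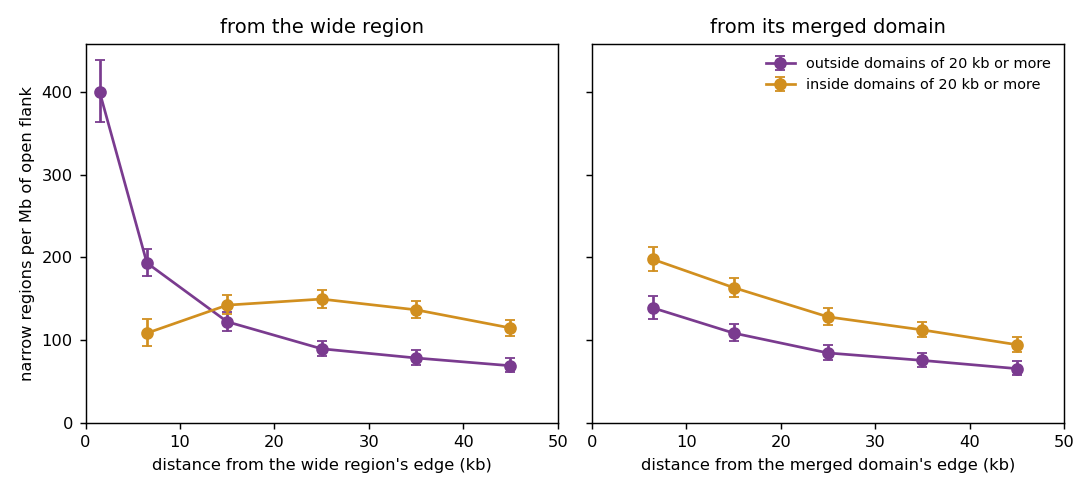
Narrow regions per Mb of open flank by distance in kb, from the edge of the wide region (left) and from the edge of its merged domain (right), for wide regions outside and inside domains of 20 kb or more. Points are pooled over autosomes with 95% exact Poisson intervals, and bins within 3 kb that merging leaves empty are not drawn; on the right both kinds decline, from 139 to 65.5 and from 198 to 94.4 per Mb.

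A like decline surrounded regions of 2 to 5 kb outside long domains. Regions of 2 to 5 kb that lay over 100 kb from any wide region and outside long domains numbered 1014, and the open flank around them held 405 narrow regions per Mb within 3 kb, 170 at 3 to 10 kb and 59.9 at 40 to 50 kb. Beside wide regions outside domains the values in these bins were 400, 193 and 69.0. Around the 2 to 5 kb regions the flank at 3 to 10 kb held 2.83 times (2.62 to 3.06) the number at 40 to 50 kb, against the 2.80 times beside wide regions outside domains. Around 215 regions of 2 to 5 kb inside long domains the ratio was 0.694 (0.498 to 0.951), against the 0.945 beside wide regions inside them. Both ratios count the 3 kb next to the domain's edge that the rule keeps empty. Members beside wide regions over 10 kb were fewer per Mb close to the edge, but not farther out. Within 3 kb they numbered 210 per Mb (154 to 280), against 359 (325 to 396) beside wide regions of 5 to 10 kb. In each 10 kb bin from 10 to 50 kb they were the more numerous. The values were 149 against 126 per Mb at 10 to 20 kb and 106 against 89.6 at 40 to 50 kb. Both widths mix wide regions outside and inside long domains, and inside them the rule keeps the flank within 3 kb of the domain's edge empty.

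While the number of members changed several-fold with distance, their pooled tag density stayed between 126 and 133 tags per kb. Members held 129 ChIP tags per kb of region within the whole set (95% counting interval 128 to 130). The density was 133.1 tags per kb (129.8 to 136.4) in the first kb. It was 126.3 (123.2 to 129.5) at 3 to 5 kb, an interval that does not overlap the first. At 40 to 50 kb the density was 129 (128 to 131). Over 20 autosomes it was 129.9 ± 4.6 within 10 kb and 130.9 ± 9.4 at 40 to 50 kb, a difference of -1.0 ± 11.5, and the near flank was the higher on 11 of 20 autosomes. With narrow regions inside long domains kept, the pooled difference was 3.30 tags per kb (1.44 to 5.17), against -0.60 (-2.87 to 1.66) for members. The pooled ChIP to input ratio was 8.38 (8.23 to 8.53) over all members. By distance it lay between 8.07 at 5 to 10 kb and 8.67 at 2 to 3 kb, with overlapping intervals. Input density, the tags of the sheared chromatin before ChIP, lay between 13.2 and 14.04 per kb in these bins.

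Per the header, peak calling set a minimum of 14 tags in a 150 bp window, or 93.3 per kb, and joined neighbouring windows into wider regions. The deposited tags of 230 members lay below this density, with a lowest value of 66.7 per kb, so the minimum is not a strict floor of the listed values. The 3022 members of exactly 150 bp, where width is fixed, held a median of 19 tags, 63.1% of them held 14 to 20, and 93 held 10 to 13. Their mean was 19.4 ± 4.2 tags (SD over 69 regions) in the first kb and 19.5 ± 4.2 (over 524) at 40 to 50 kb. Beyond 50 kb narrow regions of 150 bp held 19.5 ± 4.3. In members of this fixed width the tag number thus differed little between these distances. The window minimum and the joining of windows bear on this number, so it describes the regions as called.

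**Figure D3:**
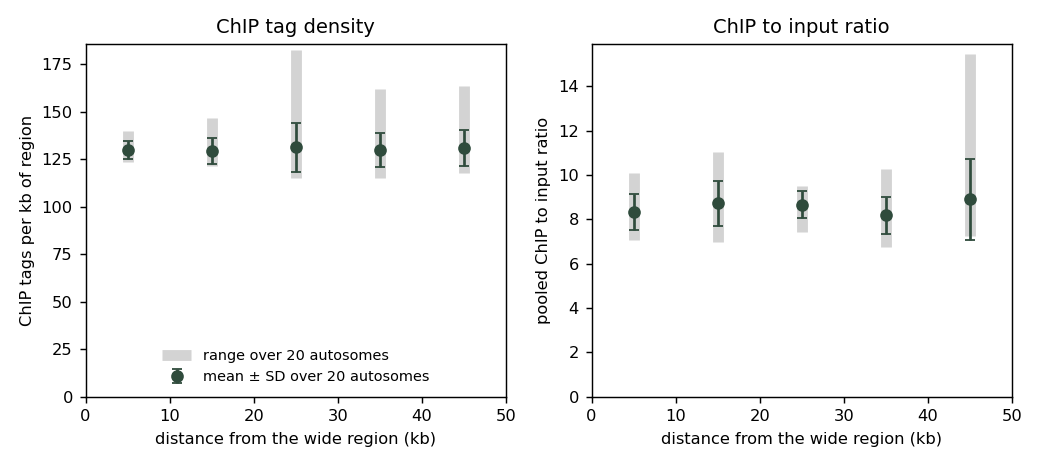
ChIP tags per kb of member (left) and pooled ChIP to input ratio of members (right) by distance in kb from the wide region, in 10 kb bins. Points are means with SD over 20 autosomes, and grey bars give the range over autosomes; the mean density stays between 129 and 131 tags per kb.

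Members were sparser in tags than the wide regions they flank. The wide regions held 260 ChIP tags per kb and a ratio of 15.1 (14.99 to 15.18). Of the 5160 members, 4971 (96.3%) had a lower ChIP density than their nearest wide region, and the median member had 0.564 times its density. The deposited fold over input, with a median of 8.27 and quartiles of 5.86 and 14.95, lay below that of the wide region in 71.7% of members. No input tag lay under 488 members, and their folds rest on the 0.5 that the file writes for 0. Width enters both the rule and the calling, and the caller links width to density, so these shares are descriptions.

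Width and spacing changed with distance, spacing in part by construction close to the edge. Of members in the first kb 34.7% were of exactly 150 bp, the window of the peak caller. The share was 55.1% at 2 to 3 kb, 57.7% at 5 to 10 kb and 63.6% at 40 to 50 kb. Mean width fell from 238 bp in the first kb to 191 bp at 40 to 50 kb. Per autosome, mean width was 216 ± 16.4 bp within 10 kb and 194 ± 19.2 bp at 40 to 50 kb, wider near the wide region on 17 of 20. The median gap from a member to the nearest other region, of any width, was 342 bp in the first kb, 845 bp at 5 to 10 kb and 921 bp at 40 to 50 kb. The tightest gap of any member was 220 bp. The caller's minimum distance of 370 bp between peaks limits how close neighbours can be.

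Most members had other regions close by. Only 909 of 5160 (17.6%) were alone, with no other region within 3 kb. Members fell into 2158 merged domains, all under 20 kb by the rule, and 1125 of these held 2 members or more, which together made up 80.0% of members. The most in 1 merged domain was 14. With their own wide region 774 members were merged. The 3 kb around a wide region by itself is thus part of a short domain rather than a separate flank. Regions of intermediate width, between 500 bp and 5 kb, shared the flanks. They numbered 338 within 10 kb, where members made up 77.6% of the regions under 5 kb outside domains, and 128 at 40 to 50 kb, where members made up 86.6%.

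**Figure D4:**
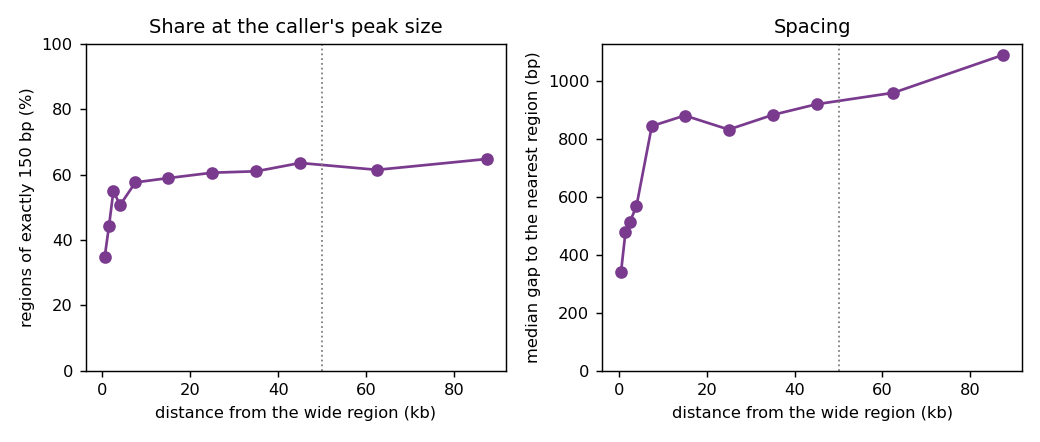
Share of narrow regions of exactly 150 bp in percent (left) and median gap in bp to the nearest other region (right) by distance in kb from the wide region, pooled over autosomes. The dotted line marks the 50 kb limit of the rule. The share rises from 34.7% in the first kb to 63.6% at 40 to 50 kb, and the gap from 342 to 921 bp. The wide region counts as a neighbour, which limits the gap close to its edge.

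The sides of the wide regions differed slightly in number. At lower coordinates than the wide region lay 2735 members, or 53.0% (95% exact binomial interval 51.6% to 54.4%), and at higher coordinates 2425. Open flank was 20.2 Mb on the lower and 20.3 Mb on the higher side, giving 135 and 119 members per Mb. The binomial interval takes members as independent, which neighbours are not. The test that follows uses numbers of members on each side, not numbers per Mb of open flank, and gives each autosome equal weight. Paired by autosome, the mean log2 ratio of higher to lower was -0.21 ± 0.39 (SD, n = 20 autosomes; a permutation test that flips signs, two-sided, p = 0.0122, Benjamini-Hochberg adjusted over 3 side tests 0.0366). The lower side held more on 12 autosomes, the higher side on 6, and they tied on chromosomes 3 and 20. Chromosome 11 differed most, with 54 members on the lower and 19 on the higher side. Without it the mean was -0.14 and the adjusted permutation p was 0.0769. The adjusted p was 0.26 among regions of 150 bp, 0.422 beside isolated wide regions, and 0.983 with domains merged at 10 kb, where the mean was -0.0039.

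In the profile by side, the lower side had the higher point value in each of the 9 bins from 0 to 50 kb. The widest gap among the 10 kb bins was at 20 to 30 kb, with 137 members per Mb (126 to 148) on the lower and 109 (99.1 to 119) on the higher side. In the first kb the values were 514 (423 to 619) and 437 (351 to 539), with overlapping intervals. Beyond the rule's limit the order varied. The lower and higher sides held 74.8 and 78.3 per Mb at 50 to 75 kb, 65.4 and 65.7 at 75 to 100 kb, and 58.1 (55.7 to 60.5) and 49.2 (47.0 to 51.4) at 100 to 200 kb. Strand, and so the direction of any gene at the wide region, was not known, and lower and higher are directions of the map only.

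Tag density and ratio did not pass the test between sides. The lower side held 128.8 and the higher side 128.9 ChIP tags per kb. Paired by autosome, the difference of higher minus lower was -0.32 ± 5.81 tags per kb (95% interval of the mean -3.04 to 2.40; sign-flip permutation test, adjusted p = 0.806). The higher side was the denser on 11 of 20 autosomes. The ChIP to input ratio was 8.33 (8.13 to 8.53) on the lower and 8.43 (8.22 to 8.65) on the higher side, with a mean log2 ratio of 0.03 ± 0.14 (interval -0.04 to 0.09; same permutation test, adjusted p = 0.567). The intervals leave room for a difference of about 3 tags per kb in either direction.

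**Figure D5:**
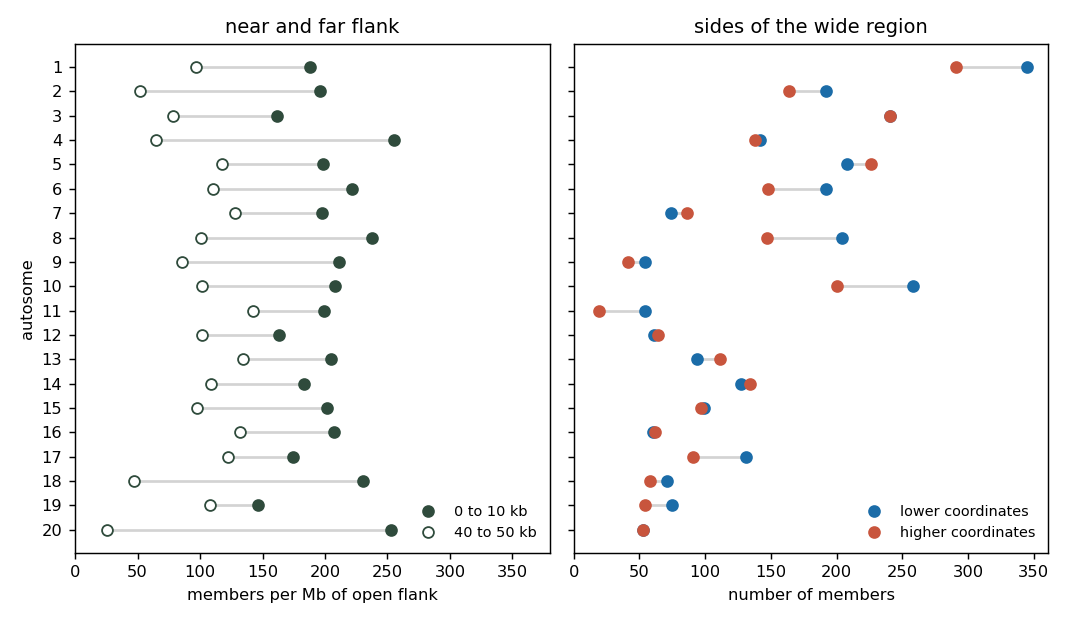
Left, members per Mb of open flank within 10 kb (filled) and at 40 to 50 kb (open) of wide regions on each of the 20 autosomes; right, number of members at lower and at higher coordinates than their wide region. The near value is higher on 20 of 20 autosomes, and the lower side holds more members on 12, with points that coincide on chromosomes 3 and 20.

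The autosomes carried 73 to 636 members, from chromosome 11 to chromosome 1, largely as they carried wide regions, of which they had 9 to 94. Per wide region there were 7.46 ± 1.33 members (SD, n = 20 autosomes). Chromosome 18 had 9.92 and chromosome 9 had 4.52, the extremes. ChIP density of members was 129.8 ± 4.1 tags per kb over autosomes, from 125 to 144, and the ratio lay between 7.94 and 9.001.

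Single wide regions differed widely in how many narrow regions surrounded them. At least 1 member was assigned to 577 of the 693, and 116 had none. The median was 6, with quartiles of 2 and 11, and the 69 wide regions with the most members held 28.0% of them all. Of the 116 without a member 113 lay inside domains of 20 kb or more, where the nearest sequence is left out by the rule. Of the 225 outside such domains 222 had a member, and 180 (80.0%) had members on both sides. Across all 693 wide regions, the number on one side went only weakly with the number on the other (Spearman rho 0.14, Pearson r 0.12), as a description over wide regions that can share a flank. The number of members went weakly with width (rho -0.07) and with fold of the wide region (rho -0.08).

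Most members surrounded a wide region of 8.55 kb on chromosome 8, from 129463510 to 129472060, with a fold of 12.52. Around it lay 34 members, 27 on the lower and 7 on the higher side, from 0.644 to 41.3 kb away. Their pooled ratio was 8.88 (7.17 to 11.1). On chromosome 18 the region from 70061484 to 70070001 had 33 members, 21 lower and 12 higher, at a ratio of 9.40 (7.50 to 11.9). Both stood outside long domains and had 11 and 10 members within 10 kb.

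A wide region of 16.1 kb on chromosome 6, from 105247601 to 105263719, lay inside a long domain and had 30 members, 21 of them on the lower side, at a ratio of 8.09 (6.56 to 10.1). Its nearest member was 8.88 kb away. The region from 69566890 to 69574966 on chromosome 8 had 29 members, 18 lower and 11 higher. The fifth, from 159028543 to 159033800 on chromosome 5, had 28, with 7 on the lower and 21 on the higher side. The richer side thus differed between these 5, and their ratios had overlapping intervals close to the value for all members.

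The members closest to a wide region sat 299 to 306 bp from its edge, measured to the midpoint. The caller's minimum distance of 370 bp between peaks limits how small these distances can be. On chromosome 10 the region from 91982528 to 91982678 lay 299 bp beyond a wide region of 5.66 kb and held 18 ChIP and 3 input tags, a fold of 5.28 (1.54 to 28.0). On chromosome 1 the region from 222738391 to 222738541 lay 301 bp from its wide region with 14 ChIP and 3 input tags. On chromosome 4 the region from 181869184 to 181869334, also at 301 bp, held 29 and 4 tags. The other two lay 304 bp away on chromosome 10, from 56317693 to 56317843, with 21 and 1 tags, and 306 bp away on chromosome 17, from 62328108 to 62328258, with 19 and 3 tags. All 5 were 150 bp wide, and with so few tags their folds are not resolved from one another.

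Among members with at least 5 input tags, a region of 412 bp on chromosome 2, from 71155392 to 71155804, ranked highest in fold. It held 240 ChIP tags, the most of any member, over 8 input tags, a fold of 26.39 (13.2 to 61.8). A region of chromosome 4 from 163609593 to 163610085 followed with 102 tags over 5, a fold of 17.94 (7.44 to 56.4), at 48.2 kb from its wide region. The region from 219469525 to 219470017 on chromosome 1 reached 14.81 (6.57 to 41.3). The others lay on chromosome 2, from 71059040 to 71059349 with a fold of 12.94 (6.06 to 33.0), and from 252967335 to 252967822 with 12.14 (4.96 to 38.6). Their intervals overlap, so this order is not resolved.

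The chromosome 2 locus around the first of these was high in tag density, and was looked at after its values had been seen. Between 71059040 and 71249687 there were 10 members with 286 ChIP tags per kb together (264 to 309), from 86.7 to 583 for single members. The 3 densest lay 10.4 to 16.9 kb from a wide region. Only 13 of the 5160 members exceeded 250 tags per kb, and 3 of these were here. Input was high here too, at 18.7 tags per kb under the members, against 13.5 over all members. The members had 3 nearest wide regions. Input was 47.4 and 39.3 per kb under those from 71031543 to 71045563 and from 71172516 to 71178414, with 4 members each. It was 14.7 under the one from 71294878 to 71300666, which had 2 of its 4 members in the locus. Over all wide regions it was 15.2. The part that this input has in the ChIP density was not tested. The pooled ratio of the 10 members was 13.4 (9.83 to 18.8). The locus was not alone in its density. On chromosome 20 the 6 members nearest the wide region from 6753800 to 6759867 held 287 ChIP tags per kb. Their ratio was 7.33 (5.64 to 9.68).

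Members had tag densities close to those of other narrow regions, and their spacing lay between that of narrow regions inside domains and that of distant ones. Narrow regions outside domains and over 50 kb from wide ones held 129.5 tags per kb with a ratio of 8.24, and those inside domains near wide regions held 134 with 8.34. The members' values were 128.9 and 8.38. The median gap to the nearest region was 781 bp for members, 457 bp inside domains and 1690 bp for the distant regions. Members alone within 3 kb made up 17.6%, against 39.6% of the distant regions. Exactly 150 bp wide were 58.6% of members, 43.6% of those inside domains and 68.3% of the distant ones. For members the wide region can be the nearest neighbour, while it lies over 50 kb from the distant regions. Position chose all 3 sets, so these differences were not tested.

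Tag density and ratio changed little across the thresholds of the rule, with overlapping counting intervals. The 147 members over 450 bp held 119 tags per kb, and the 116 regions of over 500 and up to 550 bp in the same flanks held 117. The 372 members at 45 to 50 kb had a ratio of 8.35, and the 336 regions at 50 to 55 kb 8.07. Members in merged domains of 15 to 20 kb numbered 674 and held 131 tags per kb, and the 483 narrow regions left out in domains of 20 to 25 kb held 132. Their ratios were 8.465 (8.084 to 8.868) and 8.836 (8.371 to 9.333). Beside wide regions of 5 to 5.5 kb lay 851 members with a ratio of 8.49. A further 707 narrow regions beside regions of 4.5 to 5 kb, and of no wider one, had 8.49 as well.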

How the data were processed

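Per the labels' protocols, freshly dissected nerve was fixed in 1% formaldehyde for 10 min and chromatin sheared to an average of 0.5 to 2 kb, which limits resolution to well above the 150 bp of most members. Per the submitters' processing notes, CASAVA 1.8.2, Bowtie and HOMER were used. Per the file headers, HOMER findPeaks ran in region mode (peak size 150 bp, minimum distance 370 bp, 14 tags per window at a false discovery rate of 0.001, fold of 4 and Poisson p of 1e-04 over input) on 1 combined ChIP and 1 combined input tag directory. The deposited ChIP signal is the tag number scaled to 10000000 tags, and a second deposited signal is scaled to the input. Input tags, also a deposited signal, are written as 0.5 where 0. The deposited fold is the ratio of these, and the deposited p-value, score and clonality ratio were not used.

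ChIP tags were recovered from the signal, whole within 0.234 tags for all regions, and the input total from the ratio of the scaled columns. Ratios are tags over tags, each divided by its total, with 0 for no input tag. Intervals (95%) are exact Poisson or exact binomial (Clopper-Pearson) and cover counting error only, since tags are not corrected by molecular identifiers. A zero count has its upper exact limit in the same way. Intervals of mean differences between sides come from the spread over autosomes. Side differences were tested over 20 autosomes with a permutation test that flips signs (two-sided, 100000 resamples), adjusted by the Benjamini-Hochberg method over 3 tests. Autosomes are not animals, and the p-values describe the list as called. Scripts (Python 3.11.15, scipy 1.17.1, pandas 2.3.3) were tested on simulated data. That test ran without the 3 kb merging and without leaving out long domains, so it does not cover these steps.

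Regions are named by position: the 5 wide regions with the most members, the 5 members of highest fold with 5 or more input tags, and the 5 nearest to a wide edge. On 13 of 21 chromosomes the list extends beyond the end of the final GRCr8 gene, so positions were not joined to that assembly, and no gene or sequence is printed. The members, thresholds and comparisons were chosen with earlier results of these data known.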

Additional observations from a re-analysis of the deposited data

Results flagged for a closer look

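Chromosome X lies outside the rule for members, but 43 of its 500 narrow regions met the rule's other conditions beside its 11 wide regions, or 3.91 per wide region. Of these 29 lay on the lower and 14 on the higher side. They held 124 ChIP tags per kb (117 to 132) and 10.8 input tags per kb, at a ratio of 10.1 (8.16 to 12.6). No input tag lay under 25.6% of them.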

How the results depend on the processing

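No paired analysis was possible because the 2 libraries form 1 group and the list has no value per library, and leaving out a library was not possible either. The 5160 members became 1804 with wide regions of 10 kb or more, 3022 with regions of 150 bp or less, 7834 and 1198 with merging at 1 and 10 kb, 8427 with no domains left out, 2612 at or above the median fold, and 2409 and 2751 beside wide regions outside and inside domains, the last 2 added after seeing the data. The near to far ratio of 2.13 became 1.28 with wide regions of 10 kb or more, 1.70 at 150 bp or less, 3.08 with merging at 1 kb, 3.38 with no domains left out, 3.64 outside domains and 0.835 inside. Near minus far density, pooled, of -0.60 tags per kb (-2.87 to 1.66) became 1.82 (-0.094 to 3.73) with merging at 1 kb and 3.30 (1.44 to 5.17) with no domains left out, an interval that excludes 0 on the other side of it. The ChIP to input ratio became 8.22 with merging at 10 kb, 14.8 at or above the median fold and 7.77 without regions lacking input tags, both of which select on input.

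The mean log2 ratio of sides in number lost its call at -0.23 (wide regions of 10 kb or more), -0.15 (150 bp or less), -0.16 and -0.0039 (merging at 1 and 10 kb), -0.13 (no domains left out), -0.17 (median fold), -0.19 (isolated wide regions), -0.10 (outside domains) and -0.14 (chromosome 11 left out), with adjusted permutation p from 0.0769 to 0.983. It held at -0.21 without regions lacking input tags and at -0.31 inside domains (adjusted p 0.0261 and 0.00888). The cause was not tested. Side differences that had not passed the test changed sign, in density to 1.24 at 150 bp or less and 1.01 inside domains, and in log2 ratio to -0.047 with wide regions of 10 kb or more, -0.010 with merging at 1 kb, -0.020 with no domains left out and -0.0050 at the median fold. None of these passed the test. At this depth 230 members lay below the density that the window minimum of 14 tags corresponds to, so densities near it are set by few tags.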
